A study of Homo sapiens with 8 samples.

Results

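The m6A peaks that lay in named long noncoding RNAs (lncRNAs) of HCT116 cells were taken from 4 peak lists by the gene name given with each peak. A peak was kept when its name followed the pattern of a long intergenic RNA (LINC and a number), a snoRNA host gene (SNHG), a miRNA host gene (MIR and HG), an antisense transcript (AS and a number) or an intronic transcript (IT and a number), or was 1 of 8 single names: MALAT1, NEAT1, NORAD, GAS5, DANCR, OIP5-AS1, TUG1 and KCNQ1OT1. This gave 1719 of 70751 peaks, under 376 of 11155 names. Peaks whose exon blocks overlapped on the same strand were merged across the lists into 637 lncRNA regions, of 22001 regions in all, and 9 of the 637 also held a peak of another name.

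HCT116 is a human colorectal carcinoma cell line, and all samples used here came from it, although the paper also used other lines in other experiments. These samples compared cells treated with PBS (Control) and cells treated with Fusobacterium nucleatum (F. nucleatum), an oral anaerobe found in colorectal tumours. The treatments lasted 2 h, with the bacterium at a multiplicity of infection of 100:1. Poly(A) RNA was fragmented and precipitated with an antibody against m6A, and each precipitated library had an input library without that step. Each group had 2 cultures, called Control 1 and 2 and F. nucleatum 1 and 2 below, and every list came from 1 culture. The epithelial genes KRT8, KRT18, KRT19 and EPCAM were at 162 to 2286 FPKM in the inputs, and CDX2, a transcription factor of intestinal epithelium, was at 2.73 to 3.73 FPKM. VIL1, another intestinal epithelial gene, was listed at 0 in 3 inputs and at 0.018 FPKM in F. nucleatum 2. CD3E, COL1A2 and DCN were listed at 0 in all 4 inputs. PTPRC was at most 0.00684 FPKM, but the leukocyte marker CD68 was at 7.15 to 9.3 FPKM and the fibroblast marker COL1A1 at 3.78 to 5.72 FPKM.

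N6-methyladenosine (m6A) is placed on RNA mostly by the METTL3 and METTL14 methyltransferase complex, which prefers an adenosine in the DRACH context, of which GGAC is the commonest strong form. In lncRNAs the mark can alter how proteins reach the RNA, as in the MALAT1 hairpin that opens for HNRNPC, and it is read in the nucleus by YTHDC1. In spliced snoRNA host RNAs the introns carry the snoRNAs, while many of the joined exons reach the cytoplasm and are decayed during translation by the nonsense-mediated pathway.

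The sequences of 6 lncRNA regions found in all 4 lists show where GGAC lies under peaks of the single-name, snoRNA host and miRNA host RNAs. They are examples and not the strongest regions of the whole set, and SNHG17 was added as a region short enough to print whole. All coordinates and bases here are GRCh37 (hg19), the strand is that of the RNA, and GGAC is in capitals. GGAC followed by G is not DRACH, which holds for both marked sites of the NORAD window and the middle one of LINC01315 below. For regions over 220 nt, the 101 nt with the most GGAC inside 1 exon block is shown, so the number of motifs in these windows was chosen and is no result. The lines give MALAT1 region 1 (chr11:65267744-65267844, plus strand), NEAT1 region 2 (chr11:65191027-65191127, plus), NORAD region 3 (chr20:34638398-34638498, minus), SNHG16 region 1 (chr17:74557384-74557484, plus), MIR100HG region 2 (chr11:121962316-121962416, minus) and the whole of SNHG17 region 1 (chr20:37049239-37049387, minus).
MALAT1: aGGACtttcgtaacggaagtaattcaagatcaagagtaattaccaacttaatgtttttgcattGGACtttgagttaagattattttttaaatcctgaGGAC
NEAT1: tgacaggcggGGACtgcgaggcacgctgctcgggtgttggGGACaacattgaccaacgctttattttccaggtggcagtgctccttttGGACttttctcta
NORAD: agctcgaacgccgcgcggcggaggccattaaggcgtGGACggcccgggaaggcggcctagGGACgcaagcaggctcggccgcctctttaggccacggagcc
SNHG16: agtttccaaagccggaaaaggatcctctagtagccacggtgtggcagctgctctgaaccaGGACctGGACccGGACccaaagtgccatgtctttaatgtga
MIR100HG: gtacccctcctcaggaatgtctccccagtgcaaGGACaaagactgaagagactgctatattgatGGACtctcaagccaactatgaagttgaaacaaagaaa
SNHG17: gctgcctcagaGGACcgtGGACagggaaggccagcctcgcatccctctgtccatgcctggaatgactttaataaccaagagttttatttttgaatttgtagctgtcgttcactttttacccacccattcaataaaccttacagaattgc

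The next 5 stretches come from regions found in both lists of 1 group and in neither list of the other. SNHG15 region 1 (chr7:45022627-45022776, minus), SNHG9 region 1 (chr16:2015026-2015476, plus, its 2 exon blocks joined) and LINC01184 region 1 (window chr5:127358645-127358745, minus) had peaks in both F. nucleatum lists only. LINC01315 region 1 (chr22:42764978-42765185, minus) and FOXD2-AS1 region 4 (window chr1:47899618-47899718, minus) had peaks in both Control lists only.
SNHG15: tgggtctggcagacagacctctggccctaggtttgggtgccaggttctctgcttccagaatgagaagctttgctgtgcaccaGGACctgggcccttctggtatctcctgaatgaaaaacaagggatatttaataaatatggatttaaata
SNHG9: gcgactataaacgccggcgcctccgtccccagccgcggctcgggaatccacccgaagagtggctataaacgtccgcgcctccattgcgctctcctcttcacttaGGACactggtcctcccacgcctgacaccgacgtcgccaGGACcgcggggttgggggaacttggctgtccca
LINC01184: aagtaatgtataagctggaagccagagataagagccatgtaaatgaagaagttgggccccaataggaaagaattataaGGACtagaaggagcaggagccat
LINC01315: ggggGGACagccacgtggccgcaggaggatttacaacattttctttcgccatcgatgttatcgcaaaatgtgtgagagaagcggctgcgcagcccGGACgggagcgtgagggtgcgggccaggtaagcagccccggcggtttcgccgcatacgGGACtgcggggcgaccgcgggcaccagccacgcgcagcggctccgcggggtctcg
FOXD2-AS1: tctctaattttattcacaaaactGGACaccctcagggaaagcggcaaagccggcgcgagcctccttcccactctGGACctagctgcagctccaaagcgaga

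GGAC, read on the RNA strand only, occurred in 406 of the 637 lncRNA regions (63.7%) and in 72.8% of all 22001 regions. The difference went with length. At 1 to 100 nt, 27% of 137 lncRNA regions and 30.5% of all regions held the motif. Among regions of 101 to 200 nt, 51% of 153 lncRNA regions and 54.1% of all did. For 201 to 400 nt the shares were 75.8% and 76%, for 401 to 800 nt 89.7% and 91.4%, and over 800 nt 100% and 97.9%. DRACH, which includes GGAC when A, C or T follows, occurred in 92.9% of the lncRNA regions and 94.8% of all regions. At like length the lncRNA regions held GGAC about as often as all regions.

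The count of lncRNA peaks was similar in both groups. The Control lists held 407 and 454 lncRNA peaks and the F. nucleatum lists 475 and 383, or 2.37%, 2.5%, 2.59% and 2.25% of each list. F. nucleatum 1 had the most and F. nucleatum 2 the fewest, so the groups overlapped. The means were 430.5 ± 33.2 (SD, n = 2) in Control and 429 ± 65.1 (SD, n = 2) in F. nucleatum, with p = 1 in an exact two-sided permutation test, which cannot go below 0.333 with 2 samples a group. Exonic bases under these peaks were 125745, 143881, 154434 and 125342 nt, again with overlap (exact permutation p = 1). GGAC was held by 61.2% and 65.6% of the lncRNA peaks of the Control lists and by 65.9% and 64.5% of those of the F. nucleatum lists (exact permutation p = 0.667). Mean GC content, at 51.2% and 51.6% for Control against 50.5% and 50.2% for F. nucleatum, did not overlap, and its p was the smallest this test allows (exact permutation p = 0.333). Over the 70751 peaks of all names mean GC moved the same way, at 52.1%, 52.2%, 50.9% and 50.6%. The files give no read counts for the peaks, so the depth behind each peak is unknown.

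Of the 637 lncRNA regions, 233 (36.6%) were found in all 4 lists, against 51.5% of all regions, and 232 (36.4%) were found in 1 list, against 25.6%. The lncRNA regions were shorter and weaker than the rest. Their median exonic length was 210 nt, against 325 nt, and 25.7% spanned more than 1 exon block, against 37.8%. The lowest p in a region, read from the score given with each peak, had a median of 9.5e-05 against 5.1e-08 over all regions. Only 22.3% of lncRNA regions had a p of at most 1e-10, against 42.8% of all. Within that band 95.1% of 142 lncRNA regions and 95.8% of all 9416 regions were in every list. From 1e-10 to 0.0001 the shares were 48.9% and 37%, and above it 3.17% and 1.97%. Within bins of length the share in every list was 87.9% of lncRNA regions and 90.7% of all at 401 to 800 nt, 39.6% and 45.4% at 201 to 400 nt, and 6.54% and 5.44% at 101 to 200 nt. Strength and length are not independent of presence, since a region grows as lists add to it and its p is the lowest of its lists.

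**Figure D1:**
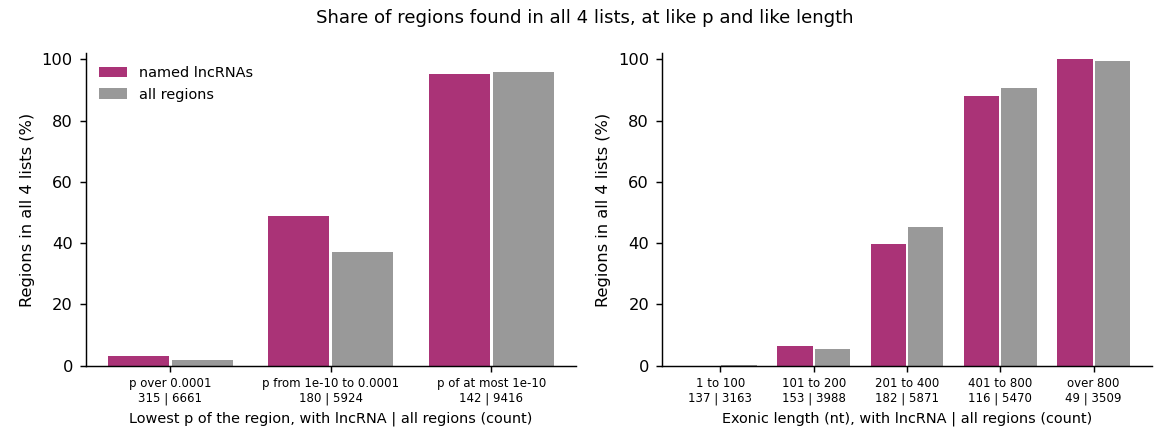
Share of regions found in all 4 lists (y axis, percent), grouped by the lowest p of the region (left) and by its exonic length in nt (right), for regions of named lncRNAs (purple) and all regions (grey); the counts of regions stand under each pair of bars. In the strongest band the bars reach 95.1% and 95.8%, and in the shortest bin no lncRNA region of 137 was in every list.

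Among the single names, 14 regions in MALAT1, NEAT1, NORAD and TUG1 included 10 in all 4 lists. MALAT1, a highly abundant nuclear RNA of splicing speckles, had its main region at chr11:65266497-65268503 (2007 nt, plus strand, 7 GGAC). Its p was listed at 0, below what the number format holds, in every list. The Control peaks there covered 1827 and 1767 nt and the F. nucleatum peaks 1797 and 2007 nt. Another MALAT1 region of 241 nt (chr11:65270090-65270330) had no peak in Control 1, p of 0.00016 over 91 nt in Control 2, and p of 1.6e-16 and 1.0e-13 over all 241 nt in F. nucleatum 1 and 2. A smaller one, chr11:65268563-65268713, had p of 4.0e-11, 2.9e-06 and 4.0e-05 in Control 1, Control 2 and F. nucleatum 1 and no peak in F. nucleatum 2. Both of these regions held DRACH but no GGAC.

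NEAT1 is the scaffold of paraspeckles and is made as a short polyadenylated and a long form. Its 3 regions were all in every list and all lay near the 5′ end, with their middles at 1.06%, 7.22% and 14.7% of the 22743-nt transcript. Of 9 annotated NEAT1 transcripts 8 end within 3740 nt of the gene's start, and the 3 regions lay inside that stretch. The strongest (chr11:65190896-65192928, 2033 nt, 8 GGAC) had p of 1.0e-145, 1.0e-132, 1.0e-235 and 1.0e-192. The others had p of 2.0e-34, 5.0e-25, 1.0e-17 and 3.8e-10 (480 nt) and of 1.8e-06, 2.8e-05, 2.0e-15 and 0.00059 (489 nt), in the order Control 1, Control 2, F. nucleatum 1, F. nucleatum 2 used for each set of 4 values below.

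NORAD, a cytoplasmic RNA that binds Pumilio proteins, also had all 3 regions in every list. The strongest covered 1433 nt at the 5′ part of this unspliced RNA (chr20:34637450-34638882, minus strand) with p of 3.2e-78, 1.0e-121, 1.0e-114 and 2.0e-97. Its peaks covered 1433, 1404, 1433 and 1404 nt. TUG1 held the longest lncRNA region, 4582 nt in 3 exon blocks (chr22:31368130-31374961, plus, 16 GGAC), with p of 1.0e-177, 1.0e-125, 1.0e-165 and 1.0e-114. The annotation used here types TUG1 as protein coding. Its region nearest the 5′ end (331 nt, GC 71.9%) had peaks in Control 2 (p of 0.0014) and F. nucleatum 1 (p of 3.8e-05) only. OIP5-AS1, also known as cyrano, was counted with the antisense names. It had 3 of its 4 regions in every list, the strongest (503 nt) with p of 2.5e-27, 2.0e-16, 6.3e-31 and 2.0e-12.

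**Figure D2:**
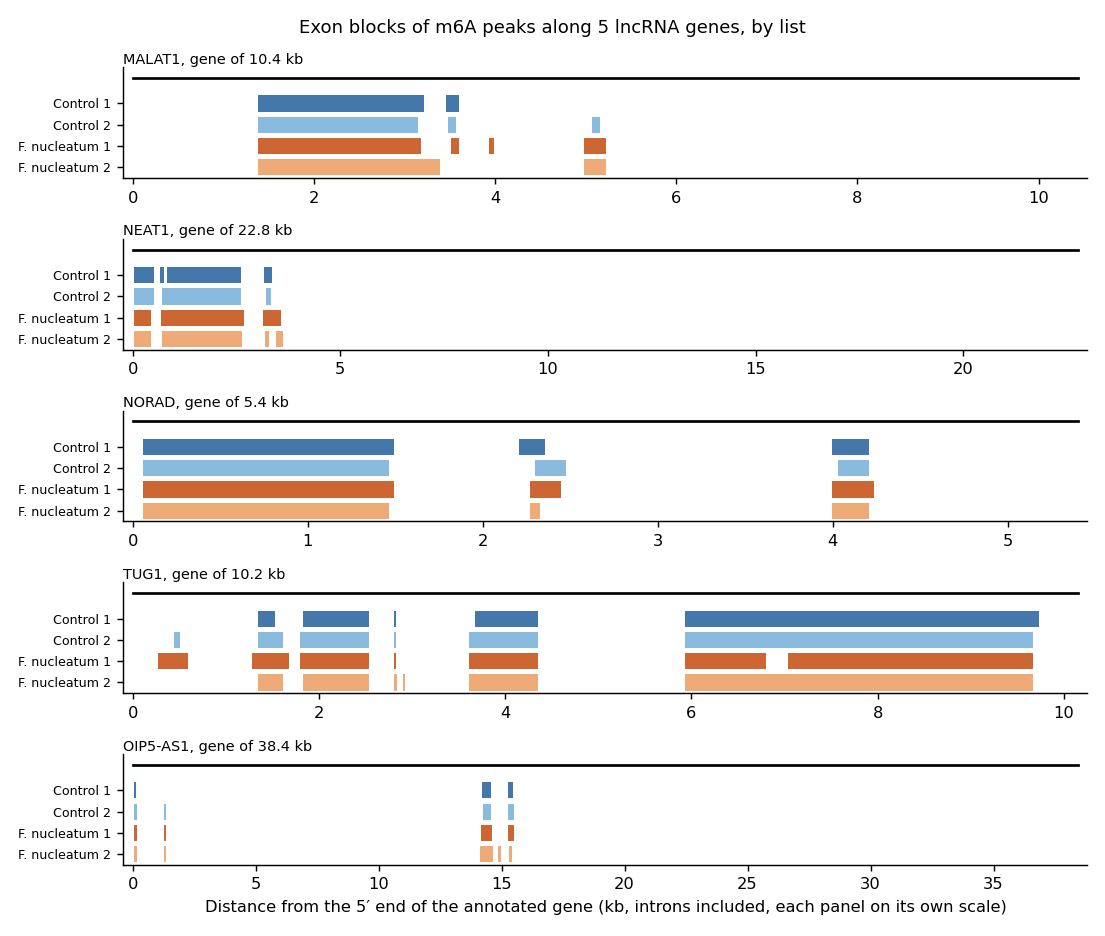
Exon blocks of the m6A peaks (coloured bars, 1 row per list) along MALAT1, NEAT1, NORAD, TUG1 and OIP5-AS1, against distance from the 5′ end of the gene in kb; the black line is the annotated gene and each panel has its own scale. The 3 NEAT1 regions lie at its 5′ end in every list, and the MALAT1 region near 5 kb is absent from Control 1.

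GAS5 and DANCR, which both carry snoRNAs in introns, and the imprinted antisense RNA KCNQ1OT1 had no peak in any list. No peak of another name touched their exons on the same strand either. A region without a peak may be unmethylated or may come from an RNA too rare for a peak, and these cannot be told apart here because the expression table holds few lncRNAs.

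The snoRNA hosts, a class set here by the SNHG name and not by the snoRNAs an RNA carries, were the class in which the groups separated. The 13 SNHG genes with a peak in at least 1 list had 8 and 9 peaks in the Control lists against 13 and 15 in the F. nucleatum lists. A peak was present in 7 and 7 of the genes against 11 and 13, and the exonic bases covered were 2202 and 2380 nt against 2828 and 3004 nt. Neither of the F. nucleatum lists overlapped the Control lists in any of these counts. These counts rest on the same few peaks and are not separate results. SNHG1, SNHG3, SNHG6, SNHG8, SNHG9 and SNHG15 entered the class only through peaks in the F. nucleatum lists. No gene entered it only through the Control lists. Since only genes with a peak are in the class, these counts are no independent support for a difference between the groups. The means were 8.5 ± 0.707 peaks in Control and 14 ± 1.41 peaks in F. nucleatum (SD, n = 2 each), and the exact permutation p was 0.333, the smallest the design allows, so the test was not passed. This class was singled out after its values were seen. The other classes overlapped between the groups, with 16, 16, 18 and 15 peaks in the 4 single names, 13, 17, 19 and 12 in miRNA hosts, 112, 115, 121 and 93 in LINC RNAs, 255, 294, 301 and 247 in antisense RNAs, and 3, 3, 3 and 1 in intronic RNAs. Of the single-name peaks 8, 6, 6 and 7 were in NEAT1, where most were listed in near-identical pairs a few nt apart.

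**Figure D3:**
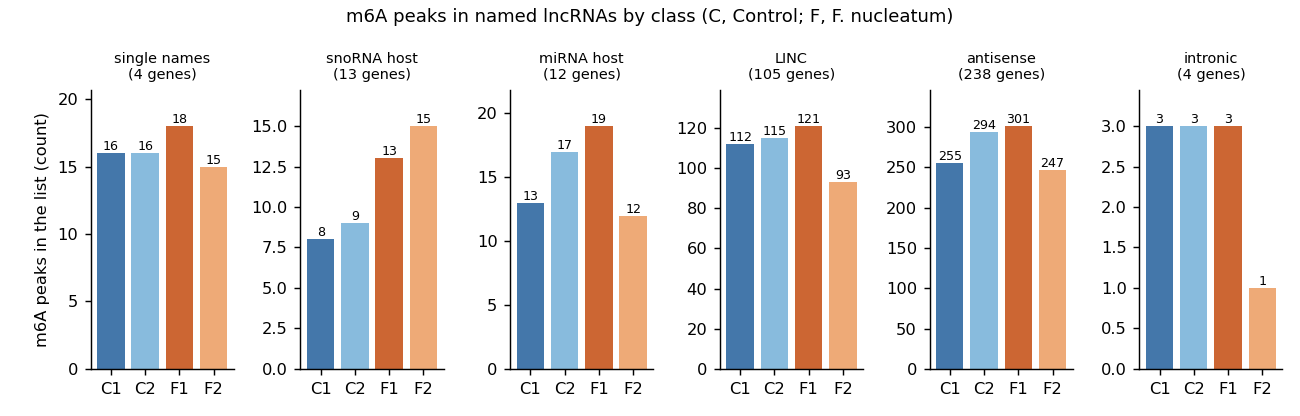
Number of m6A peaks (y axis, count) in each list for 6 classes of named lncRNA, with bars from 0 and blue for Control (C1, C2) and orange for F. nucleatum (F1, F2). The snoRNA hosts have 8 and 9 against 13 and 15 peaks, while in the other 5 panels the groups overlap.

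All 7 SNHG-named RNAs with a Control peak, SNHG7, SNHG11, SNHG12, SNHG16, SNHG17, SNHG21 and SNHG26, also had a region in every list. SNHG16 held the strongest of them, 538 nt in 3 exon blocks (chr17:74555112-74559609, plus), with p of 1.0e-280, 0, 0 and 1.0e-248. SNHG12 followed with 181 nt (chr1:28905050-28906082, minus) and p of 1.6e-21, 7.9e-18, 1.3e-26 and 5.0e-13. A further SNHG16 region of 389 nt had p of 3.2e-18, 7.9e-15, 3.2e-26 and 7.9e-09. One of 210 nt between them was absent from Control 1, weak in Control 2 (p of 0.00076) and had p of 2.6e-10 and 1.5e-05 in F. nucleatum 1 and 2.

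In 4 of the 15 snoRNA host regions (26.7%), both F. nucleatum lists and neither Control list had a peak, against 2.38% of all regions. SNHG6 was the strongest, a 207-nt region in 2 exon blocks (chr8:67834165-67834580, minus) with p of 2.5e-21 and 2.0e-20. It held 5 DRACH and no GGAC, and its GC content was 31.4%. SNHG15 had p of 7.8e-07 and 6.3e-15, and the middle of its 150 nt lay at 97.6% of the transcript, 77 nt from the 3′ end. SNHG9 (p of 4.8e-05 and 6.5e-05) and SNHG3 (p of 0.0005 and 0.00012, chr1:28836543-28836692) were weaker, and the SNHG3 region also lay on exons of RCC1 on the same strand, so its peak may belong to either RNA. SNHG1 (60 nt, p of 4.2e-05) and SNHG8 (119 nt, p of 3.3e-06) had a peak in F. nucleatum 2 only. When only peaks with a p of at most 1e-05 were used, 2 snoRNA host regions were F. nucleatum-only. The snoRNA host regions left at that limit were not counted, so no share can be set against the 2.25% of all regions. Of the 15 regions 12 had their middle in the last exon, against 62% of all regions placed on a spliced transcript. The median distance from the middle to the 3′ end was 268 nt, against 1919 nt over all placed regions. This distance also depends on transcript length. As a share of the transcript, the median middle lay at 74.9%, against 46.1% over all placed regions.

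**Figure D4:**
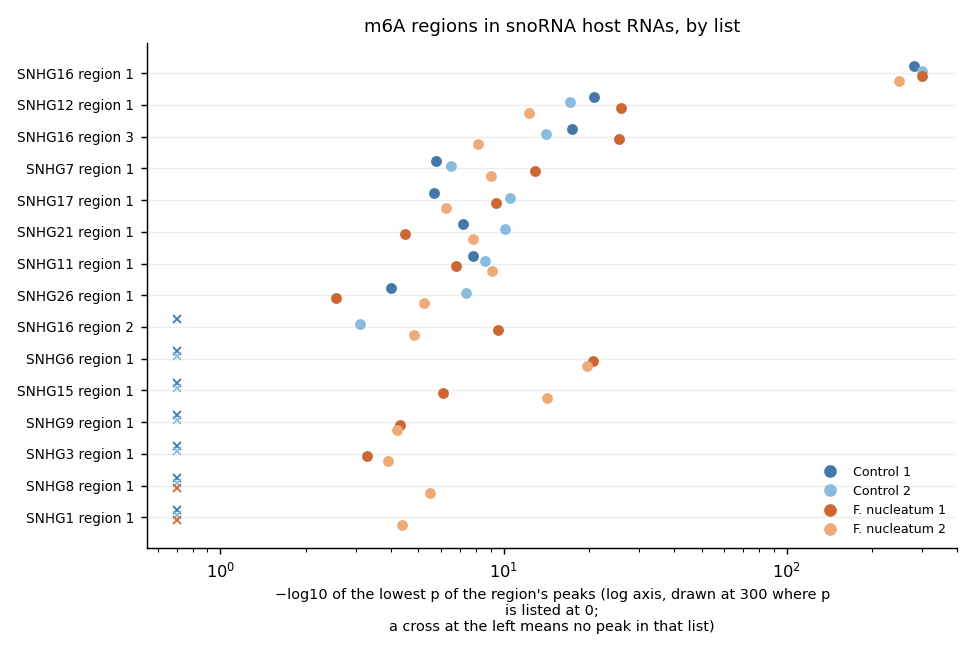
The −log10 of the lowest p (x axis, log scale) of each snoRNA host region in Control (blue) and F. nucleatum (orange) lists, with a cross for a list without a peak. SNHG16 region 1 reaches p listed at 0 in 2 lists, and the rows of SNHG6, SNHG15, SNHG9 and SNHG3 have points for F. nucleatum only.

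Since the amount of these RNAs was not measured here, more methylation and more RNA cannot be told apart for them. The 10 nonsense-mediated decay factors, which act on spliced snoRNA host RNAs, were all in the expression table. None passed limma's test at an adjusted p under 0.05, against 0.803% of all genes tested. None had an unadjusted p under 0.05, against 13.5% of all genes tested. Their log2 fold changes (F. nucleatum over Control, on log2 of FPKM + 1) ran from -0.15 for UPF3B to 0.09 for SMG8, with a median of -0.04. UPF1, the helicase of the pathway, was at 27.2, 28.3, 27 and 26.6 FPKM. All 10 carried m6A regions, 35 in all, of which 19 were in every list, against 51.5% of all regions. Of the 35, 1 (in SMG1) was in both Control lists only and 0 in both F. nucleatum lists only, against 2.64% and 2.38%.

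The miRNA hosts had 24 regions in 12 genes, 9 of them in all 4 lists. MIR100HG had the strongest, 688 nt in 2 blocks (chr11:121961863-121971183, minus) with p of 1.0e-120, 1.0e-130, 1.0e-134 and 1.0e-115, and a neighbouring region of 330 nt that was also in every list. MIR22HG followed with the longest region of the class, 953 nt with p of 7.9e-19, 2.0e-12, 3.2e-23 and 4.0e-17. MIR210HG, whose miRNA is induced by low oxygen, had 809 nt with 7 GGAC and p of 6.3e-13, 3.2e-14, 3.2e-14 and 2.4e-10. MIR4435-2HG had 6 regions but only the 479-nt one in its last exon was in all lists. MIR34AHG, the host of a p53-induced miRNA, had 3 regions, each in a single list. Of the 20 regions placed on a spliced transcript 19 had their middle in its last exon, against 62% of all such regions, and no region of any class contained the gene of a miRNA or snoRNA.

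Among the 172 LINC regions in 105 genes, 56 (32.6%) were in every list and 72 (41.9%) in 1 list. LINC01578, also called CHASERR, which lies upstream of CHD2, was the strongest with p of 0, 1.0e-288, 1.0e-289 and 1.0e-277 (569 nt in 4 blocks, chr15:93428767-93441319, plus). Part of it lay on annotated CHD2 exons on the same strand. LINC00339 (1004 nt) had p of 3.2e-56, 1.3e-54, 1.0e-77 and 5.0e-67. LINC01234 had the longest region of the class, 2192 nt with 10 GGAC and p of 7.9e-49, 5.0e-66, 2.0e-64 and 1.0e-46. LINC00346 had 6 regions, 5 of them in every list.

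The antisense names formed the largest class, with 406 regions in 238 genes, 149 of them (36.7%) in every list. NCBP2-AS2, which the annotation types as protein coding, had p of 0, 0, 0 and 1.0e-286 over 923 nt (chr3:196669494-196670416, plus). THAP9-AS1 (1319 nt) had p of 1.0e-210, 1.0e-245, 1.0e-208 and 1.0e-184. FGD5-AS1 (1200 nt) had p of 1.0e-116, 1.0e-172, 1.0e-163 and 1.0e-121. PTOV1-AS1 had the longest region, 1552 nt with p of 6.3e-55, 2.0e-57, 5.0e-54 and 6.3e-70. Of the 406 regions 141 lay opposite exons of a coding gene on the other strand. The 4 intronic names had 6 regions, and only GABPB1-IT1 (509 nt, p of 1.7e-07, 4.0e-12, 4.1e-06 and 4.7e-07) was in every list.

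Several lncRNAs carried many regions. There were 65 genes with 3 or more regions, 44 of them antisense and 13 LINC names, with 249 regions of which 92 were in all lists. LINC01128 and TTC28-AS1 had 8 each, with 3 and 2 in all lists. Every region was in all 4 lists in 4 of these genes, NEAT1, NORAD, WAC-AS1 and SLC25A25-AS1, the last with 4 regions of 239 to 597 nt. No region was in all lists in 16 of them. GABPB1-AS1 was such a case, with 5 regions, of which 4 were in a single list and 1 in Control 2 and F. nucleatum 1.

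In 13 lncRNA regions (2.04%) both Control lists and neither F. nucleatum list had a peak, against 2.64% of all regions. In 18 (2.83%) the reverse held, against 2.38%. Both shares were near those of all regions. With only peaks of p of at most 0.001, however, the Control-only share was 0.86% (4 regions), against 2.61% of all, and the F. nucleatum-only share 3.23% against 2.37%. The 31 regions were short and mostly weak, with a median length of 208 nt in the Control-only and 207 nt in the F. nucleatum-only set, and a lowest p above 0.0001 in 8 of 13 and 9 of 18. The median GC content was 58.7% in the Control-only and 53.7% in the F. nucleatum-only lncRNA regions, against 61.7% and 45% for the same sets over all regions. GGAC was present in 76.9% and 77.8% of them, against 70.7% and 55% for those sets over all regions. DRACH was in every one of the 31, against 93.1% and 97.1%.

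Among the Control-only regions GAS6-AS1 region 2 was the strongest (chr13:114545397-114545814, 418 nt, p of 1.0e-08 and 0.00015). CTBP1-AS2 region 3 had p of 8.7e-06 and 0.0036, LINC01315 0.0003 and 9.3e-06, DNAH17-AS1 3.6e-05 and 1.2e-05, and FOXD2-AS1 region 4 7.8e-05 and 0.0014. CACTIN-AS1, LINC01128 region 4, MELTF-AS1 region 3, MIR4453HG and KMT2E-AS1 had a lowest p between 0.00011 and 0.00019, and LBX2-AS1, LINC00920 and ZNF503-AS2 were weaker. In 3 of the 13 the same gene had another region in all 4 lists, and 6 were the only region of their gene.

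Among the F. nucleatum-only regions SNHG6 and SNHG15 came first. MBNL1-AS1 region 2 followed with p of 1.3e-11 and 2.5e-08 over 301 nt (chr3:151986640-151987295, minus), opposite exons of MBNL1, which encodes a splicing regulator. LINC01184 had p of 8.3e-09 and 1.4e-09 over 389 nt (chr5:127358645-127359033, minus). PHKA2-AS1 (p of 1.4e-07 and 0.00047), MCPH1-AS1 region 2 (p of 0.00014 and 1.7e-07) and FBXO22-AS1 (p of 1.6e-06 and 0.00079) each lay opposite exons of their partner gene. SNHG9, LINC00638 and SNHG3 completed the 10 strongest. The others were BAIAP2-AS1 region 4, MAPKAPK5-AS1 region 2, OTUD6B-AS1 region 1, LINC01842, LINC01759, LINC00460, ID2-AS1 and ST20-AS1 region 3, with a lowest p of 0.00021 to 0.0023. In 4 of the 18 the gene had another region in every list, and 11 were the only region of their gene.

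**Figure D5:**
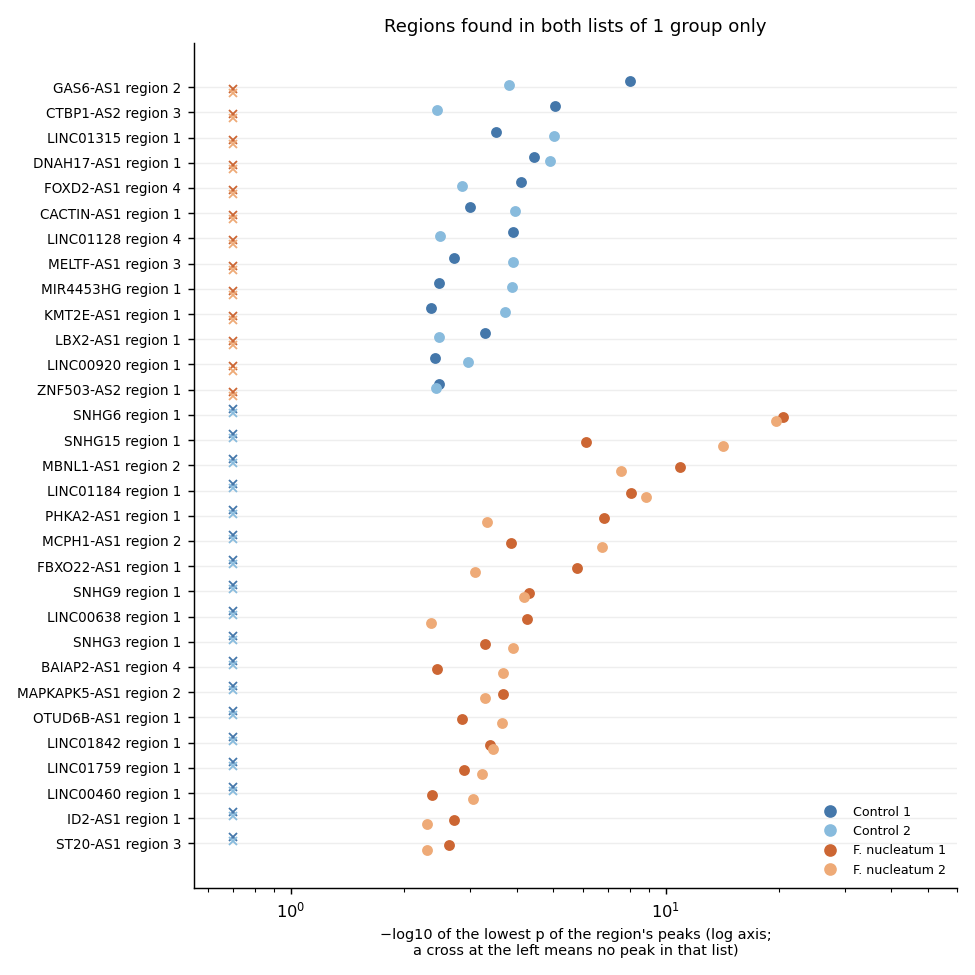
The −log10 of the lowest p (x axis, log scale) for the 13 Control-only regions (upper rows) and the 18 F. nucleatum-only regions (lower rows), with blue for Control, orange for F. nucleatum and a cross for a list without a peak. GAS6-AS1 region 2 is the strongest of the upper rows at p of 1.0e-08, and SNHG6 of the lower rows at 2.5e-21.

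The expression table, made from the input libraries, held 13 entries that followed the name rule, and only LINC01835 and NCBP2-AS2 averaged at least 1 FPKM. LINC01835 was at 24, 19.9, 21.3 and 19.5 FPKM, with overlapping groups, a log2 fold change of -0.09 ± 0.104 (SE) and an adjusted p of 0.71 in limma. NCBP2-AS2 was at 32.5, 32.1, 27.8 and 31.5 FPKM, lower in both F. nucleatum inputs, with -0.12 ± 0.078 (SE) and an adjusted p of 0.524. Thus limma called 0 of the 2 at an adjusted p under 0.05, and 0 at an unadjusted p under 0.05, against 0.803% called of all 11088 genes tested. For the other 374 lncRNAs with a peak the level of the RNA was not analysed here.

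Most of the genes that antisense and intronic lncRNAs are named after could be followed in that table. The part of the name before AS or IT gave 237 names for the 242 lncRNAs. Some, such as HOXA and HOXB, are not names of single genes. Of the 237 names 232 were in the table and 191 were tested. Of these 191 genes limma called 2 (1.05%), both higher in F. nucleatum. This share was near the 0.803% of all genes tested, so the 2 are described as single genes and not as a feature of the partners. IER3, an immediate early gene that protects cells from death under stress, rose from 115 and 113 FPKM to 194 and 202 FPKM, a log2 fold change of 0.79 ± 0.052 (SE) with an adjusted p of 0.00601 (limma). ELF3, an epithelial ETS transcription factor, rose from 16.1 and 16.1 FPKM to 23.9 and 24.8 FPKM, with 0.57 ± 0.063 (SE) and an adjusted p of 0.0265 (limma). Without F. nucleatum 1 and 2 in turn, the log2 fold changes were 0.82 and 0.76 for IER3 and 0.59 and 0.54 for ELF3, close to the full values, while the adjusted p was 0.111 and 0.111 and 0.246 and 0.282. That fit takes its spread from the 2 Control samples alone and assumes that the lone F. nucleatum sample varies like them. Without a filter on low values the adjusted p was 0.122 for IER3 and 0.141 for ELF3. The median log2 fold change of the 191 was 0.016, and that of all genes tested was 0.014.

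The lncRNAs opposite these genes carried peaks in both groups. IER3-AS1 had 1 region (chr6:30711049-30711450, plus, 402 nt) opposite IER3 exons, with p of 3.0e-09, 4.0e-18, 7.9e-30 and 7.9e-12. ELF3-AS1 had a 297-nt region opposite ELF3 exons with no peak in Control 1 and p of 0.00032, 9.8e-06 and 1.5e-07 in the other lists. SPRY4, which encodes an inhibitor of growth factor signalling, was at 27.4, 26.4, 36.9 and 36.9 FPKM, with an adjusted p of 0.0519 in limma, and SPRY4-AS1 had a region in every list. ID2, the partner of the F. nucleatum-only ID2-AS1 and an inhibitor of bHLH transcription factors, was at 276, 258, 218 and 199 FPKM, with -0.36 ± 0.067 (SE) and an adjusted p of 0.139 in limma. With 1 library left out, its adjusted p was 0.127 without Control 1, 0.0422 without Control 2, 0.481 without F. nucleatum 1 and 0.672 without F. nucleatum 2. In these fits the spread comes from the group that still has 2 samples, and without Control 2 the calls over all genes were 284 against 89. None of the 6 tested partners of lncRNAs with a Control-only region was called by limma. The 8 tested partners of those with an F. nucleatum-only region were not called either, against 0.803% of all genes tested. At an unadjusted p under 0.05 were 2 of the 6 and 1 of the 8, against 14.7% of all 191 tested partners and 13.5% of all genes tested. Whether the antisense peaks and the levels of the partner genes are related was not tested.

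Among 31 other lncRNAs that the name rule does not cover, 11 had 17 regions. Of these 8 were in every list, 0 in both Control lists only and 1, in JPX, in both F. nucleatum lists only. Over all regions the shares were 51.5%, 2.64% and 2.38%. UCA1 was the strongest of these other lncRNAs. The proteins that act on nuclear lncRNAs were also examined. Of 11 such genes, which include HNRNPC, the paraspeckle proteins SFPQ, NONO and PSPC1, and the reader YTHDC1, limma called 0, and 1 had an unadjusted p under 0.05, against 13.5% of all genes tested. HNRNPC was at 398, 397, 408 and 391 FPKM and NONO at 139, 159, 147 and 149 FPKM. Of their 21 regions 16 were in every list, against 51.5% of all regions, and YTHDC1 had none.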

How the data were processed

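Peaks were deposited as 4 lists, 1 per culture, each with a name, strand, exon blocks and a score that is read here as the p-value the authors gave each peak. Per the study's methods, reads were aligned to hg19 and peaks were called by MACS2 with Fisher's exact test. How the input libraries entered the peak calls is not given in the sources used here. The submitters' processing notes name Trim Galore 0.3.3, HISAT2 2.1.0 and StringTie. Each experiment had 2 biological replicates per the methods. The deposited FPKM table, made by the authors from the input libraries, covers mRNAs and few lncRNAs.

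Peaks sharing at least 1 exonic base on the same strand formed a region, and regions were set against GRCh37 bases and GENCODE 44 gene models lifted to that build. Of the 376 names 309 matched a gene exactly, 54 through a synonym and 13 not at all, and 347 were typed as lncRNA and 7 as protein coding. Of the 637 regions, 580 had any base on the annotated gene of their name, so the rest rest on the name given with the peak alone. A region was placed when at least 90% of it lay on 1 transcript (558 of 637). Expression was tested with limma 3.58.1 (R 4.3.3) on log2(FPKM + 1) over the 11088 genes that averaged at least 1 FPKM, with trend and Benjamini-Hochberg adjustment over all of them. FPKM are not counts, so the count model that the authors name was not used. Counts per list were compared by two-sided exact permutation of the 4 samples. The scripts were tested on simulated data.

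Members and gene lists were chosen with earlier results of these data known. The text names the 8 single lncRNAs, genes with 3 or more regions (grouped) and the 10 strongest regions of each group-only set. It also names, per class, the 3 strongest and the longest region found in every list. Members in the FPKM table and partners of named antisense RNAs are named too. IER3, ELF3 and SPRY4 were named for their own expression values, and their antisense RNAs were named with them. Alternatives were other p limits, overlap rules, leaving out each library, and other pseudocounts, filters, scalings and a replicate block. The p-values of the peaks carry no read depth. A sequence withheld for evaluation is not reported here.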

Additional observations from a re-analysis of the deposited data

How the results depend on the processing

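The difference in lncRNA peaks (-1.5 peaks, F. nucleatum minus Control) turned to 17.5 with p of at most 1e-05 and 20 with p of at most 0.001, and ran from -47.5 to 44.5 when 1 library was left out. The difference in bases (5075 nt) ran from -9471 to 19621 nt and that in GGAC (1.78 percentage points) from -0.446 to 4.01 without 1 library. Each of these differences thus changed sign with 1 library left out. Higher snoRNA host counts in F. nucleatum kept their sign with p of at most 1e-05 (2.5 peaks) and of at most 0.001 (5 peaks). Leaving out 1 library gave 4.5 to 6.5 peaks, but it could not turn the sign, since the groups did not overlap. All these alternatives were chosen after the data were seen.

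With p of at most 1e-05, 123 regions were in every list (46.6%, against 61.6% of all regions) and 5 were Control-only (1.89% against 2.59%). At that limit 10 were F. nucleatum-only (3.79% against 2.25%). Of these 2 were snoRNA host regions, whose share within their class was not computed. With p of at most 0.001, 4 were Control-only (0.86% against 2.61%). Without Control 1, Control 2, F. nucleatum 1 and F. nucleatum 2, in turn, the Control-only count was 80, 61, 43 and 26 and the F. nucleatum-only count 31, 39, 52 and 101, since fewer lists then have to match.

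The number of partner genes called (2) was 0 without a filter on low values, 1 without a trend, and 0 to 7 without 1 library (3 without Control 1, 7 without Control 2, 0 without F. nucleatum 1 or 2). The log2 fold change of LINC01835 ran from -0.22 without Control 2 to 0.033 without Control 1. With a replicate block, 0 of 2 lncRNAs and 2 partner genes were called, and 90 of all genes against 89. Same-numbered inputs deviated together with a correlation of 0.0243 over genes, so no pairing by number was seen in the values. The sample titles do not say whether same-numbered cultures were paired.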
